A study of Mus musculus with 4 samples.

Results

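The suppressor of cytokine signalling (SOCS) family comprises 8 genes, Socs1 to Socs7 and Cish. Their accessible regions were described in mouse bone marrow-derived macrophages by ATAC-seq, in which a transposase cuts open chromatin and the cut sites pile up as peaks. Overlapping peaks of the 4 libraries, by at least 1 bp, were merged into 91858 regions. A region was assigned to its nearest protein-coding gene when it lay inside that gene or within 50 kb of it. This placed 56 of 80467 assigned regions at the 8 SOCS genes, out of 21887 protein-coding genes. The genes were picked by family membership, not by any measured value, though earlier results of these data were known. The 2 groups were wild-type (WT) macrophages of littermate controls and macrophages of Ezh2fl/fl;LysM-Cre+/- mice, termed Ezh2 knockout (KO), with 2 libraries each. Ezh2 is the methyltransferase that deposits the repressive H3K27 mark, and LysM-Cre deletes it from the myeloid lineage onward, so marrow cells before that stage carried the gene. Macrophages of both groups had been grown with L929 cell medium and then kept for 24 hours in medium conditioned by Hepa1-6, a mouse hepatoma line. The question was whether accessible chromatin at these genes differed between KO and WT under that exposure. Macrophages without tumour medium were not analysed here. The labels give neither the exact alleles of the littermate controls nor whether replicates came from separate mice, so errors and p-values measure only the spread between these libraries. In bulk ATAC-seq, a site open in fewer cells and a site cut less often per cell cannot be told apart.

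SOCS proteins are feedback inhibitors of cytokine receptors. Cytokine binding activates Janus kinases (JAKs), which phosphorylate STAT transcription factors, and STATs in turn switch on SOCS genes. Each SOCS protein binds phosphotyrosine through its SH2 domain and recruits elongins and cullin 5 through its SOCS box, which marks bound proteins for degradation. SOCS1 and SOCS3 also carry a short segment that blocks the kinase itself. In macrophages, SOCS1 restrains interferon and IL-4 signals, and SOCS3 restrains IL-6 family signals through the receptor subunit gp130.

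Sequences of the start sites of Cish, Socs1, Socs3 and Socs4 were taken from RefSeq promoter windows on GRCm38.p6, the assembly behind mm10, which reach from 250 bases before the start to 50 after it. Stretches of the windows of Cish, Socs1 and Socs3 are shown because they hold the textbook elements of STAT and interferon control, and because every library's peak covered all 300 bases of each window. Capitals mark matches to TTCNNNGAA, the gamma-activated site bound by STATs, or to TTTCNNTTT, a short form of the interferon-stimulated response element. Matches were searched on both strands. The stretch of Cish (chr9:107296657-107296686, plus strand) spans its start site. That of Socs3 (chr11:117969367-117969616, minus strand) and that of Socs1 (chr16:10785537-10785786, minus strand) end at the base before the start.

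Cish: ttTTCCTGGAAagTTCTTGGAAatctgtca
Socs3: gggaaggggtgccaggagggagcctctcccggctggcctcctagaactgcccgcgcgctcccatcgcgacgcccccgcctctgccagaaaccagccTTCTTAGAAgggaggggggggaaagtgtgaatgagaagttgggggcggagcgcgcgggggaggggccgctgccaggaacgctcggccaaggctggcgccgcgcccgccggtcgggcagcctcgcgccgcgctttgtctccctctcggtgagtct
Socs1: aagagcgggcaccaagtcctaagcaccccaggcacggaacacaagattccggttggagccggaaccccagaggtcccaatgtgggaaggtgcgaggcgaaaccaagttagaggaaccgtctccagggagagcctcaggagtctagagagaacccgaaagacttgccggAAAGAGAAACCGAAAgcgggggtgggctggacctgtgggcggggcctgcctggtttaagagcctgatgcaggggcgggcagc

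Cish held 2 gamma-activated sites, at bases 1 and 12 counted from the start, and Socs3 held 1, at base -154. Of 21263 windows of protein-coding genes, 7.69% held such a site. Socs1 held 2 overlapping matches to the interferon element, at bases -82 and -76, and read on the opposite strand. That element occurred in 9.69% of windows. The window of Socs4 held neither. The GC box GGGCGG, present in 46.2% of windows, occurred in all 4 of these genes, 2 times each in Cish, Socs1 and Socs3 and 1 time in Socs4. No match was found in the 4 windows to AGGAAGT (ETS and PU.1 core, 9.07% of windows), TGANTCA (AP-1, 6.99%), TGACGTCA (CREB, 2.23%), CACGTG (E-box, 7.84%) or GGGANTTTC (NF-kB, 1.08%). A match is a description of the letters and does not show that a factor was bound.

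The 4 lists held 67055 to 72887 peaks each and covered 26.7 to 29.9 Mb. The files give no read counts, so depth is unknown. A region without a peak in a library may have gone undetected there and is not shown to be closed. All 7 macrophage markers, Spi1, Csf1r, Adgre1, Itgam, Cd68, Mertk and Fcgr1, had a region within 1 kb of a gene end called in all 4 libraries. This held for 1 of 3 T cell, 1 of 3 B cell, 0 of 3 neutrophil, 1 of 3 hepatocyte and 1 of 3 fibroblast markers. Median log2 width differences (KO minus WT) of these marker lists ran from -0.743 for fibroblast to 0.03 for macrophage markers, and their part in the results below was not tested. Ezh2 itself had 4 of its 7 regions called in all 4 libraries and no region called in 1 genotype only. Its peaks covered 3156 and 2992 bp in WT, against 2579 and 2576 bp in KO. The floxed exons were not located here, so this gives no check of the deletion.

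All 8 SOCS genes had a region within 1 kb of a gene end that was called in every library, where "called" means that the library had a peak in it. Across protein-coding genes 54.6% had one. Every library had a peak in 40 of the 56 SOCS regions (71.4%), and in 59.5% of assigned regions genome-wide. A further 4 (7.14%) were called in 3 libraries, against 9.35% of assigned regions, 2 (3.57%) in 1 library of each genotype, against 6.06%, and 9 (16.1%) in a single library, against 21.7%. Of these 9, WT libraries called 6 and KO libraries 3, where 53.8% of 17435 single-library regions genome-wide came from WT. None was called in both KO libraries and no WT library (KO-only, 1.44% of all assigned regions), and 1, near Socs6, was called in both WT libraries and no KO library (WT-only, 1.94%). By library, WT called 48 and 49 of the SOCS regions, and KO called 44 and 46. Genome-wide the shares were 75.7% and 79.6% for WT, 73.5% and 78.0% for KO. Calls of single regions were not tested, because an exact test of this design cannot give a two-sided p below 0.333.

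**Figure D1:**
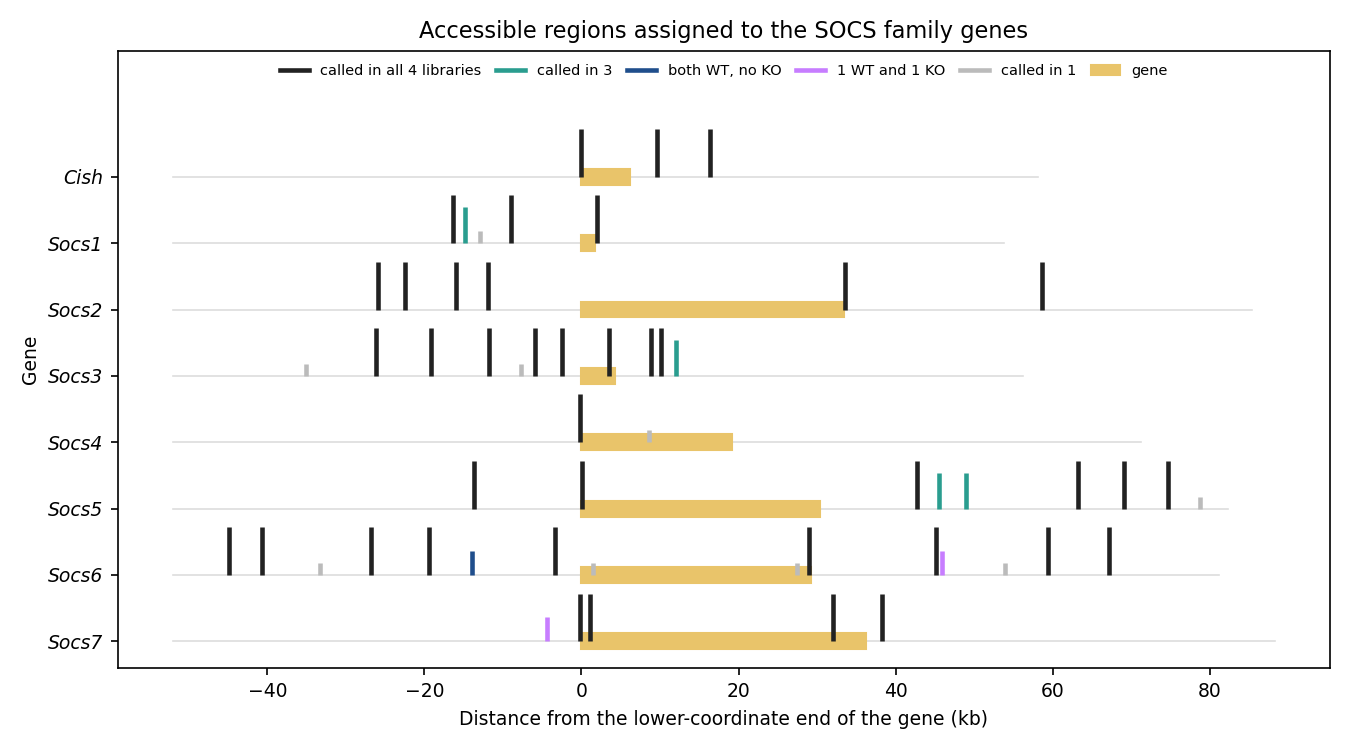
Map of the 56 regions assigned to the 8 genes, with the distance from the lower-coordinate end of each gene in kb on the x axis and 1 row per gene. Yellow bars are genes, and line height and colour give the number and kind of libraries that called a region. Each gene has at least 1 region at an end in all 4 libraries, and Socs6 (15 regions) and Socs3 (11 regions) are the most crowded.

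The genes differed in the amount of accessible sequence assigned to them, in an order that depended on how far from the gene regions were counted. Under the 50 kb rule Socs6 had 15 assigned regions, Socs3 11, Socs5 9, Socs2 6, Socs1 and Socs7 5 each, Cish 3 and Socs4 2, where the median protein-coding gene had 2.0. In WT the bases covered by peaks averaged 5002.5 ± 914.3 at Socs6, 3851.5 ± 135.1 at Socs3, 2817 ± 366.3 at Socs5, 2632.5 ± 672.5 at Socs2, 2370 ± 110.3 at Socs1, 2150.5 ± 102.5 at Cish, 1604.5 ± 429.2 at Socs7 and 1407 ± 113.1 at Socs4 (bp, SD, n = 2 each). Neighbours in this order whose libraries overlapped were Socs5 and Socs2, Socs2 and Socs1, and Socs7 and Socs4. In KO the order ran Socs6 (4568 ± 490.7), Socs3 (4446 ± 159.8), Socs5 (3017.5 ± 6.36), Socs2 (2364 ± 26.9), Cish (2161 ± 159.8), Socs1 (2034 ± 149.9), Socs7 (1496.5 ± 89.8) and Socs4 (1002.5 ± 409.4), again in bp with n = 2. Socs6 and Socs3, and Cish and Socs1, overlapped there. Within 10 kb the first rank turned: Socs3 kept 7 regions and averaged 2764.5 ± 113.8 bp in WT, while Socs6 kept 4 and averaged 1110.5 ± 65.8 bp (SD, n = 2). In WT the order was then Socs3, Cish, Socs1, Socs7, Socs4, Socs2, Socs6 and Socs5. From Socs1 onward, the libraries of all neighbours in this order overlapped.

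Between genotypes, Socs3 was the 1 gene with more covered sequence in both KO libraries (4559 and 4333 bp) than in both WT libraries (3756 and 3947 bp), an order seen in 14.8% of 15880 genes with peaks in all 4 libraries. Socs1 had less in KO (1928 and 2140 bp) than in WT (2448 and 2292 bp). This order rested partly on weak Socs1 regions not called in every library. One gave 370 bp in WT replicate 1 only. Another gave 164 and 208 bp in WT and 117 bp in KO replicate 2, and was missing in KO replicate 1. Socs4 also had less in KO (713 and 1292 bp) than in WT (1327 and 1487 bp). Less in both KO libraries than in both WT libraries was seen in 17.0% of genes. The other 5 genes overlapped between genotypes. Within 10 kb these orders were the same for all 8 genes, but the mean difference (KO minus WT) shrank from 594.5 to 332.0 bp at Socs3 and from -336.0 to -48.5 bp at Socs1.

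**Figure D2:**
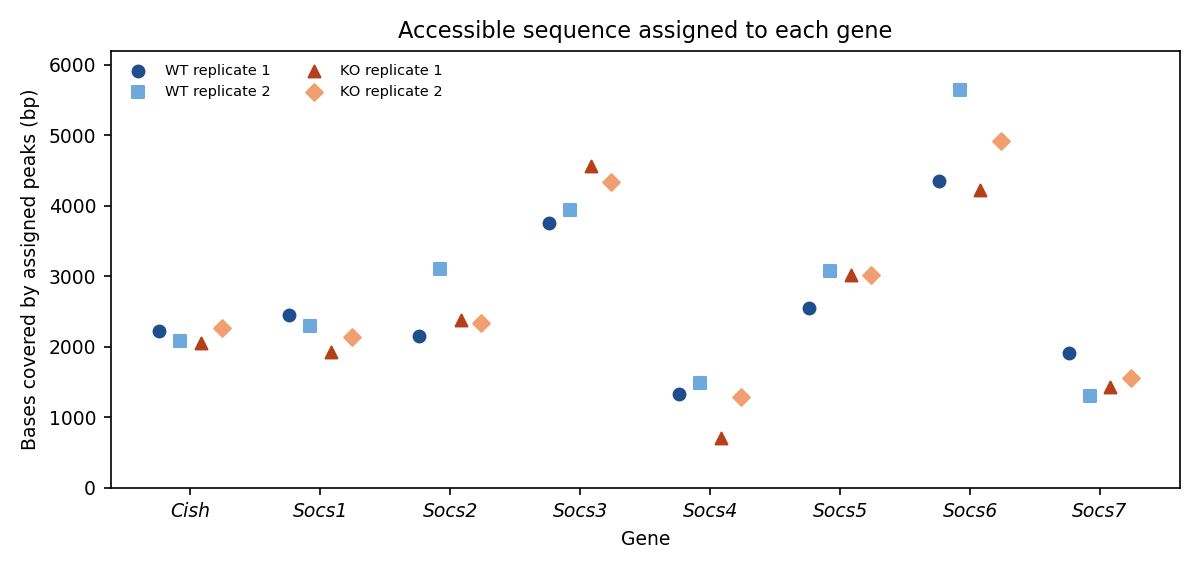
Bases covered by the assigned peaks of each library (y axis, bp) at each gene (x axis), 1 point per library. The KO points lie above the WT points at Socs3 and below them at Socs1 and Socs4, and overlap them at the other 5 genes.

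Cish and Socs2 are the family members most closely tied to STAT5, the STAT of growth hormone, prolactin and many colony-stimulating factors. Cish (chromosome 9, 107296659 to 107302784, plus strand) had 3 regions, each called in every library. The region over its start site, which holds the STAT elements printed above (107296081 to 107297149), was 929 and 970 bp wide in WT and 928 and 1069 bp in KO. Its rank, the percentile of the deposited fold enrichment within each list, stood at 58.8 and 50.9 in WT, against 55.0 and 52.6 in KO. Widths and ranks at the Cish start therefore overlapped between genotypes. The regions 3301 and 9809 bp beyond the 3′ end were also shared. In the nearer one the WT ranks, 60.6 and 54.1, lay above the KO ranks, 46.9 and 41.6, while widths overlapped at 350 and 388 bp in WT, against 333 and 404 bp in KO.

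Socs2, whose loss in mice causes gigantism through excess growth hormone signalling, lies on chromosome 10 (95383903 to 95417321). All 6 of its regions were called in all 4 libraries. The region at its higher-coordinate end (95416557 to 95418262) was covered by a single WT replicate 2 peak of 1664 bp. In the other 3 libraries it was split into a pair of peaks with gaps of 527 bp in WT replicate 1 and 439 and 468 bp in KO, so that the covered widths were 1018 bp in WT replicate 1 and 1138 and 1124 bp in KO. In covered width, WT replicate 2 thus stood apart from its own group as well as from KO. Its peak ranked at 34.3. The ranks of the split libraries, 61.5 in WT, and 72.5 and 58.6 in KO, were those of their short peaks. These were 126 bp wide in WT replicate 1, and 127 and 138 bp in KO. The longer peaks of the pairs ranked at 39.3 in WT replicate 1, and 35.2 and 45.8 in KO, nearer to WT replicate 2. A row of 4 regions lay 11659 to 25852 bp below the lower-coordinate end, and 1 lay 25061 bp beyond the other end. The farthest of the 4, 25852 bp away, was wider in KO, at 174 and 178 bp, than in WT, at 129 and 173 bp, a margin of 1 bp between the nearest libraries.

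Socs1 (chromosome 16, 10783808 to 10785536, minus strand), the inhibitor of interferon receptors, had 5 regions, 3 of them called in every library. The region over its start (10785007 to 10786607), which reaches beyond the start on the 5′ side and holds the interferon elements printed above, covered 1576 and 1583 bp in WT, and in KO 1600 and 1564 bp. Its ranks were 26.3 and 37.4 in WT, and in KO 37.2 and 49.5. The widths were nearly equal in all 4 libraries, and the ranks, below those of the Cish and Socs3 start regions, overlapped between genotypes. The other 4 regions lay 8826 to 16249 bp beyond the 3′ end. The nearest (10774689 to 10774982) was narrower in KO, at 159 and 162 bp, than in WT, at 210 and 213 bp, but its ranks were higher in KO, at 54.7 and 40.8 against 38.9 at most in WT. Width and rank thus pointed in opposite directions there. A weak region 14682 bp away was missing in KO replicate 1, with ranks of 13.5 and 19.6 in WT and 13.7 in KO replicate 2, and another 12678 bp away was called in WT replicate 1 only, at rank 7.27. The farthest, 16249 bp away, was called in every library and overlapped in both measures, with 128 and 288 bp in WT, against 169 and 297 bp in KO.

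Socs3 (chromosome 11, 117966079 to 117970336, minus strand) is the inhibitor of gp130 and of the G-CSF and leptin receptors. Its 11 regions formed a row on both sides of the gene, 8 of them called in all 4 libraries. The start used for its promoter window, base 117969366, lies inside the annotated gene, and distances are from the gene's ends. The start region (117968993 to 117970142) was among the most even of the family, with 1101 and 1102 bp in WT, against 1145 and 1067 bp in KO. Ranks there were 63.5 and 63.8 in WT, against 65.0 and 68.1 in KO, so KO lay above WT by little more than 1 percentile at the closest. On the 3′ side, the widest region, 18756 bp away (117946393 to 117947323), covered 681 and 730 bp in WT, against 873 and 808 bp in KO, at ranks between 80.3 and 88.1 in all libraries. KO widths exceeded both WT widths there, while ranks overlapped.

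The nearest 3′ region of Socs3, 2157 bp away, was likewise wider in KO (649 and 669 bp against 535 and 604 bp) but ranked lower (55.9 and 48.7 against 75.2 and 60.6). At 26111 bp a narrow region was wider in KO (216 and 199 bp against 159 and 178 bp) and also ranked higher (87.5 and 78.2 against 38.2 and 70.9). It was the 1 SOCS region in which both measures were higher in both KO libraries. The regions 5600 and 11653 bp beyond the 3′ end, and 5806 bp before the 5′ end, ranked higher in both KO libraries with overlapping widths. The region 4495 bp before the 5′ end overlapped in both measures. The remaining 3 were not called in every library. The region 7613 bp before the 5′ end was missing in WT replicate 1 and had a 115 bp peak at rank 1.07 in WT replicate 2, against 199 and 182 bp at ranks 36.4 and 3.27 in KO. Single KO libraries called the other 2, at 34984 and 7633 bp on the 3′ side.

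Socs4 and Socs5 encode proteins with long N-terminal regions and have been linked to the EGF receptor. Socs4 (chromosome 14, 47276920 to 47296102, plus strand) starts next to Wdhd1, and the region over its start (47275986 to 47277382) overlapped both genes, so it cannot be given to one of them. It covered 1327 and 1363 bp in WT and 1292 bp in KO replicate 2. In KO replicate 1 it was split by a gap of 468 bp into peaks of 157 and 556 bp, 713 bp in all, and 178 of the 300 bases of the Socs4 promoter window were covered. Ranks overlapped at 79.9 and 80.6 in WT, against 96.3 and 75.5 in KO, the split library having the highest. That rank was of its 556 bp peak, while its 157 bp peak ranked at 49.8. The narrower KO coverage of Socs4 therefore rests mainly on 1 library. A region of 124 bp inside the gene was called in WT replicate 2 only, at rank 33.95.

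Socs5 (chromosome 17, 87107278 to 87137647) had 9 regions, 6 of them called in all libraries. The region at its lower-coordinate end (87106785 to 87107941) was even, with 1131 and 1028 bp in WT, against 1096 and 1157 bp in KO and ranks from 66.8 to 77.8. The largest width differences of the family lay at distal Socs5 regions. One, 13569 bp below the gene (87093364 to 87093709), covered 122 and 210 bp in WT, against 346 and 341 bp in KO. Its ranks were low and overlapped, at 26.9 and 35.5 in WT, against 24.9 and 33.1 in KO. The other, 32508 bp beyond the higher end (87170155 to 87170739), covered 260 and 364 bp in WT, against 529 and 558 bp in KO, at overlapping ranks of 72.3 and 81.4 in WT, against 53.2 and 83.4 in KO. Each was wider in both KO libraries than in both WT libraries without a matching shift in rank. Of its 3 remaining distal regions called in all 4 libraries, at 12148, 38459 and 44065 bp, none was separated by genotype in width or rank. Of the others, 1 was missing in KO replicate 1 (15001 bp away), 1 in KO replicate 2 (18237 bp away), and 1 was called in KO replicate 1 alone (48360 bp away).

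Socs6 (chromosome 18, 88865169 to 88894364), which binds the receptor tyrosine kinase KIT, had the most regions of the family and those with the highest ranks. A region 19233 bp below the gene (88845511 to 88845936) had deposited fold values between 10.3 and 11.2 in the 4 libraries, and ranks from 99.5 to 99.9. Another, 37748 bp beyond the other end (88932112 to 88932588), had ranks from 99.2 to 99.6, with widths of 403 and 443 bp in WT, against 387 and 472 bp in KO. Both lay well outside the gene and stood near the top of every list. A region 26423 bp below the gene ranked from 92.2 to 95.1 and was narrower in KO, at 570 and 736 bp, than in WT, at 748 and 794 bp.

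The region at the higher-coordinate end of Socs6 (88893649 to 88894639) covered 496 and 857 bp in WT, against 717 and 920 bp in KO, and the ranks were 99.1 and 78.8 in WT, and in KO 92.2 and 80.1. In both genotypes replicate 1 had the narrower and higher-ranked peak. The WT-only region lay 13834 bp below the gene (88851165 to 88851335), with peaks of 126 and 171 bp at ranks 86.5 and 58.8 in WT. When peaks under 150 bp were left out it was no longer WT-only, while a Socs1 region then was. A region 3271 bp below the gene was lower in KO in both measures. It covered 291 and 300 bp in WT, against 285 and 263 bp in KO and ranked at 33.4 and 29.0 in WT, against 17.8 and 14.1 in KO. The region 29889 bp beyond the higher end was wider in KO, at 565 and 594 bp, than in WT, at 508 and 521 bp, and the region 44720 bp below the gene ranked higher in KO, at 89.6 and 85.3, than in WT, at 78.2 and 81.6. The region 40066 bp below the gene varied widely within a genotype, from 515 to 1196 bp in WT. The 4 single-library regions of Socs6 came from WT, as did the 1 of Socs1 and the 1 of Socs4. The 2 of Socs3 and the 1 of Socs5 came from KO. Genome-wide, 53.8% of single-library regions came from WT.

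Socs7 (chromosome 11, 97362292 to 97398542), which binds insulin receptor substrates and the adaptor Nck, had 4 regions called in all libraries. The region at its lower-coordinate end (97361896 to 97362433) was narrow for a gene end. It covered 438 and 387 bp in WT, against 538 and 495 bp in KO, so KO was wider, while the ranks of 80.8 and 80.2 in WT lay above those of 65.8 and 79.5 in KO. A second region lay just inside that end (97363193 to 97363662) and was among the weakest of those shared, with ranks of 13.0 and 5.19 in WT, against 1.75 and 1.97 in KO. Its widths followed replicate number rather than genotype, at 448 and 240 bp in WT, against 398 and 209 bp in KO. A strong region inside the gene (97393923 to 97394629) ranked higher in WT (91.9 and 94.3) than in KO (86.6 and 85.4), with overlapping widths. The region 1761 bp beyond the higher-coordinate end overlapped in both measures. The last region, 4360 bp below the gene, was called in replicate 2 of each genotype, at 122 and 128 bp.

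**Figure D3:**
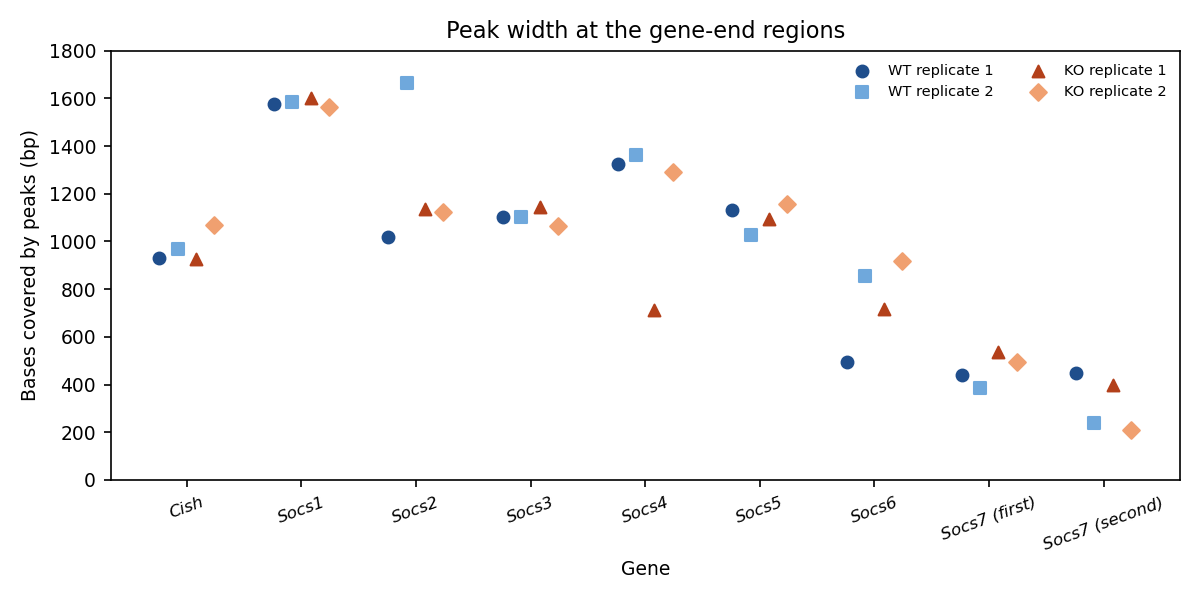
Bases covered by peaks (y axis, bp) in the 9 regions within 1 kb of a gene end (x axis), 1 point per library. Socs1, Socs3 and Socs5 are even across libraries, WT replicate 2 stands high at Socs2, KO replicate 1 stands low at Socs4, and the Socs7 regions are the narrowest.

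Regions at the ends of SOCS genes were wider than those elsewhere, as in the rest of the genome. Their median span was 1150 bp (9 regions called in all 4 libraries) against 390 bp for the 31 others, where all assigned regions had 819 and 457 bp. Their median rank was 65.1 at gene ends and 55.1 elsewhere, where all assigned regions had 72.95 and 57.4. The span is that of all merged peaks. The 16 SOCS regions that at least 1 library did not call had a median span of 171.5 bp.

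Width was tested between genotypes with limma on log2 covered width over all 53062 regions called in 4 libraries, with Benjamini-Hochberg adjustment over all of them. None of the 40 SOCS regions passed an adjusted p of 0.05, and across the genome 0.0% of regions passed as wider in KO and 0.0% as narrower. At an unadjusted p under 0.05 there were 2 of the 40 SOCS regions, where 5.201% of all regions reached it. Both were the distal Socs5 regions described above. The region 13569 bp below the gene differed by 1.11 ± 0.35 on the log2 scale (KO minus WT, SE, limma adjusted p = 0.894), and the region 32508 bp beyond the higher end by 0.83 ± 0.24 (limma adjusted p = 0.833). For the start regions the differences were 0.08 ± 0.11 at Cish, 0.01 ± 0.12 at Socs1, 0.02 ± 0.13 at Socs3 and -0.47 ± 0.25 at Socs4 (limma, adjusted p from 0.971 to 0.9997). Without KO replicate 1 the Socs4 difference was -0.11, and without KO replicate 2 it was -0.83. The median difference over the 40 regions was 0.01, as it was over all assigned regions.

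**Figure D4:**
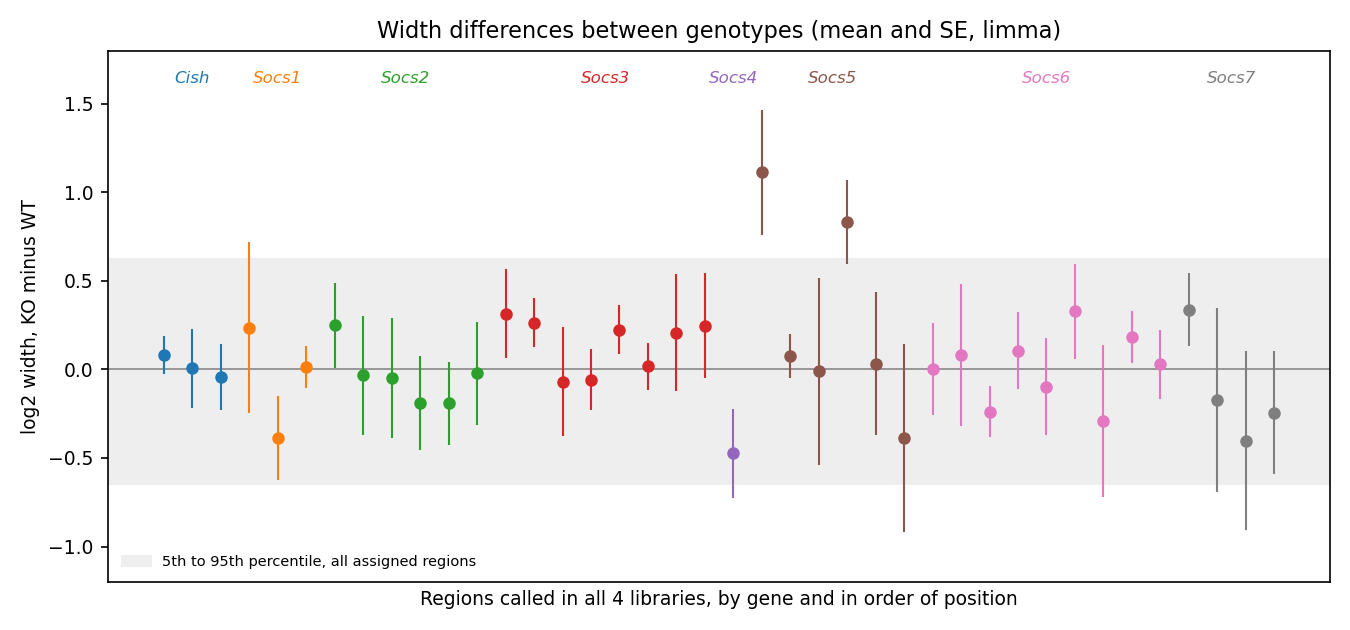
Difference in log2 width between genotypes (y axis, KO minus WT) for the 40 SOCS regions called in all 4 libraries (x axis, by gene and position), with SE from limma, and the 5th to 95th percentile of all assigned regions in grey. The distal Socs5 regions, at 1.11 and 0.83, lie above the grey band and none lies below it.

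Counted by order alone, 9 of the 40 SOCS regions were wider in both KO libraries than in both WT libraries, against 16.5% of 47917 assigned regions called in all 4 libraries, and 4 were narrower, against 16.8%. Ranks were higher in both KO libraries in 7 of the 40, against 17.0%, and lower in 6, against 17.9%. The 9 wider regions came from Socs3 (3), Socs5 (2), Socs6 (2), Socs2 (1) and Socs7 (1). Ranks from lists of different lengths show no change in signal and were set side by side only as a description. In 27 of the 40 regions widths overlapped, and in 27 ranks did.

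**Figure D5:**
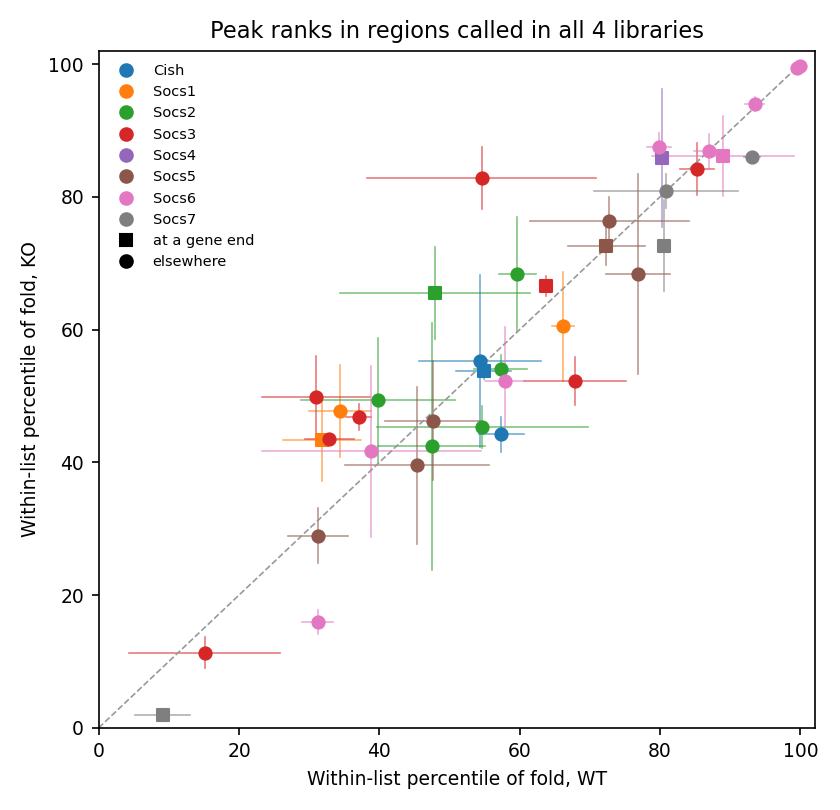
Within-list percentile of the deposited fold for the 40 SOCS regions called in all 4 libraries, WT on the x axis and KO on the y axis. Points are means of 2 libraries, lines join the 2 libraries of a genotype, colours give the gene, and squares mark regions at a gene end. Points follow the diagonal, with a pair of Socs6 regions at the upper right corner and the Socs3 region 26111 bp from the gene farthest above the line.

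For partners of the SOCS proteins and the pathway they restrain, the share of regions called in all 4 libraries ran from 61.5% to 73.5% over 5 gene lists, near or above the 59.5% of all assigned regions. The SOCS box partners Elob, Eloc, Cul5 and Rnf7 all had a gene-end region in every library, with 8 of 13 regions called in all 4 and none in 1 genotype only. So did the kinases Jak1, Jak2, Jak3 and Tyk2 (20 of 32 regions called in all 4), with 1 KO-only region of 281 bp inside Jak1. The KO peaks of that Jak1 region ranked at 12.8 and 6.93. Of the 7 STAT genes, Stat4 and Stat5b had no gene-end region in all 4 libraries, and 24 of 37 STAT regions were called in all 4, with none specific to a genotype. Other brakes on the pathway were 12 genes, such as the phosphatase genes Ptpn1, Ptpn2, Ptpn6 and Ptpn11 and the PIAS genes. Of these, 11 had a gene-end region in every library, and Ptpn1 did not. The 12 genes had 61 of 83 regions called in all 4. They had 2 KO-only regions, at Ptpn11 (ranks 33.1 and 24.1) and at Sh2b3 (0.037 and 0.013, the floor of both lists). The 1 WT-only region was at Ptpn2 (ranks 49.77 and 40.65). Among 21 receptor genes, 15 had a gene-end region in every library, and those without were Il2rg, Lifr, Osmr, Prlr, Epor and Lepr. Peaks of every library fell in 85 of 136 receptor regions, while 3 were KO-only and 1 was WT-only. Genome-wide, 54.6% of genes had such a gene-end region, the KO-only class held 1.44% of assigned regions and the WT-only class 1.94% of them.

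Receptor regions called in KO only lay at Csf2rb, the shared beta chain of the GM-CSF, IL-3 and IL-5 receptors, and at Ifnar2, a subunit of the type I interferon receptor. Csf2rb had 2 of them. The wider, 487 bp from the gene (chromosome 15, 78351488 to 78352696), had peaks of 1091 and 338 bp in KO at ranks of 4.83 and 11.7. The other, inside the gene, had peaks of 127 and 164 bp at ranks of 4.91 and 20.2. That of Ifnar2 lay 30050 bp away, with peaks of 297 and 220 bp at ranks of 14.9 and 9.52. The WT-only region was 148 bp wide near Lifr, with ranks of 2.71 and 0.687. The highest rank among these receptor calls was 20.2. No region of these lists passed the limma test of width at an adjusted p of 0.05, as none did in the genome.

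By bases covered in each of the 4 libraries, taken as log2(kb + 1), the protein-coding genes at the smallest Euclidean distance from Socs6, the member with most covered sequence, were Gm37013 and Gm38666, each at 0.04 and sharing one set of covered bases. Nearest to Socs4, the member with least, were Neu2 (0.0955) and Ephb6 (0.103). Neu2 covered 1429 and 1403 bp in WT, against 752 and 1360 bp in KO. These values follow from the choice of genes by likeness.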

How the data were processed

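ATAC-seq peaks of 4 libraries were used. Per the submitters' processing notes, the tools were fastp, Bowtie2 and MACS2 and the build mm10, without versions. The authors deposited a filtered broad peak list for each library, and neither the filter nor read depth is known. The authors' fold ratio of each peak served only for its percentile within its list. The −log10 p and −log10 q values that the authors deposited (largest q 0.0497) and the deposited score were not tested. Libraries were grouped by their titles.

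Gene positions came from the RefSeq table of GRCm38.p6, which gives no strand. Strand came from the promoter table, which matched 4 of the 8 genes. A region overlapping several genes counted for each. Width in a library is the sum of its peaks in the region, and rank is that of its highest peak. Log2 widths were median-centred and fitted with limma 3.58.1 in R 4.3.3 (KO against WT, variance trend), genome-wide, after the script was tested on simulated data. Alternatives were another merging distance (100 bp), a minimum width (150 bp), removal of the weakest 25% of peaks, other assignment rules (10 kb, or any gene within 50 kb), no centring, the widest peak, the replicate number as a block, each library left out, and, chosen after seeing the data, no variance trend and covered bases per gene within 10 kb.

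The genes and lists were chosen with earlier results of these data known. All 8 genes are described. Regions named are those at gene ends, the widest, the genotype-specific ones, those with the largest width differences and, after their values were seen, others at each gene. Likeness was measured for the members with most and least covered bases.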

Additional observations from a re-analysis of the deposited data

How the results depend on the processing

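None of the SOCS regions passed the limma test of width under any of the 13 alternatives, with a smallest adjusted p from 0.609 to 0.971. With the replicate block the count was 0 too (smallest limma adjusted p = 0.932). Over 53062 regions, the deviations of same-numbered libraries in median-centred log2 width had a correlation of 0.0105. Centring removes shifts of a whole library, so this value cannot show whether same-numbered libraries were handled together. In both genotypes replicate 2 had more peaks (72887 in WT, 71111 in KO) than replicate 1 (69210 and 67055). Its lists also covered more sequence (29.8 and 29.9 Mb against 27.7 and 26.7 Mb). The count of SOCS regions called in all libraries, 40 of 56, became 19 of 25 within 10 kb (76.0%, against 60.5% of all assigned regions). Without the weakest 25% of peaks it was 33 of 48, and the shares lay closer together (68.8%, against 65.3%). Without peaks under 150 bp it was 35 of 52 (67.3%, against 56.8%). For any gene within 50 kb it was 73 of 103 (70.9%, against 59.5%). With 1 library left out it ranged from 41 to 42 (74.5% to 77.8%, against 65.0% to 65.6%). KO-only regions, 0 in all, numbered 1 of 52 without peaks under 150 bp (near Socs3, 1.92% against 1.61% of all assigned regions). They numbered 0 to 2 with 1 library left out, where the share over all assigned regions rose from 1.44% to between 3.25% and 7.67%. WT-only regions, 1 in all, numbered 2 of 48 without the weakest 25% of peaks (both near Socs6, 4.17% against 2.21%). Within 10 kb there were 0 (1.87% of all assigned regions), and for any gene within 50 kb 2 of 103 (1.94% of both). With 1 library left out there were 2 to 4, where the share over all regions rose from 1.94% to between 4.0% and 9.35%. That genotype then rests on a lone library. The fits without centring, with the block and without the variance trend kept the sign of all 13 width differences followed. With 1 library left out, values crossed 0 at the start region of Socs1 (-0.06 to 0.11), that of Socs3 (-0.10 to 0.14), the end regions of Socs5 (-0.03 to 0.18) and Socs6 (-0.03 to 0.69), the Socs6 region 40066 bp away (-0.49 to 0.66), the second Socs7 region (-0.70 to 0.37) and the one inside Socs7 (-0.95 to 0.16). The cause of these crossings was not tested. No value was obtained for the Socs2 end region without WT replicate 2, the library whose single peak spanned it. With another library left out its difference was -0.51 to -0.11, so its stability without WT replicate 2 is unknown. The lone library is assumed to vary like the others. For the distal Socs5 regions the range was 0.76 to 1.47 and 0.63 to 1.04. Depth is unknown and limits every absence of a call.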
